A study of Mus musculus with 3 samples.

Results

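The genes followed here are Mbp, Pmp22, Mag, Prx, Cldn19, Pllp, Fa2h and Mal, which encode proteins of the myelin sheath or the machinery that builds it. This set of 8 genes, chosen by name, was found by Ensembl ID among the 27734 genes listed in all 3 libraries. The libraries came from whole cochleae of wildtype C57BL/6J mice, dissociated with the enzymes papain and thermolysin and sorted to remove debris. Single cells were captured in droplets, and their transcripts were counted from the 3′ end as unique molecular identifiers (UMIs), each standing for 1 captured RNA molecule. There were 2 libraries from embryonic day 15 (E15) and 1 from postnatal day 7 (P7). The labels do not say how many animals or ears went into a library, nor whether the E15 libraries came from separate animals, so p-values measure the spread between these libraries, which may be technical. With 1 P7 library, a difference of age and a difference of library cannot be told apart.

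Myelin is a stack of glial membrane wrapped around an axon. In the peripheral part of the auditory nerve and around the cell bodies of spiral ganglion neurons it is made by cells of the Schwann lineage, and in the central part of the same nerve by oligodendrocytes, whose territory reaches the base of the cochlea. Both cell types share a core of myelin proteins, and each adds its own: the periphery relies on PMP22 and periaxin among others, and the central nervous system on proteins such as MOG and MOBP.

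Cells were placed in groups as follows. E15 glia were the cells of clusters that carried Schwann lineage markers, clustered without the 8 genes, and comprised 153 and 186 cells of the 2774 and 3437 cells used in replicates 1 and 2. P7 Schwann cells were cells with at least 1 UMI of Sox10, at least 1 of Cldn19 or Prx, and none of Mog or Olig1, and comprised 417 of 6840 cells. P7 oligodendrocytes had at least 5 UMIs of Mog, Mobp and Opalin together and at least 1 of Olig1 or Olig2, and comprised 40 cells. No cell met both P7 definitions. Cldn19 and Prx chose the P7 Schwann cells, so their level there is a description and was tested only with a definition that leaves them out. Summed over cells, the groups held 2612705 and 2198684 UMIs at E15, 4515376 in Schwann cells and 1527482 in oligodendrocytes. The median cell had 15546 and 10655 UMIs at E15, 8807 in Schwann cells and 38105.5 in oligodendrocytes. Levels are given in CPM, the group's counts scaled to the same total in every group, and intervals are exact 95% intervals that cover counting error only. Libraries shared between 3 and 6 cell barcodes in each pair.

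The groups were set against their markers. E15 glia, whose clusters were named from Sox10, Fabp7 and other markers, had Sox10 at 499 and 450 CPM and Fabp7, a marker of early glia, at 5586 and 6024 CPM, and no UMI of Mog, Mobp, Opalin, Olig1, Olig2 or Ermn. In P7 Schwann cells Foxd3, of the Schwann lineage, stood at 212 CPM, and the oligodendrocyte markers Mobp, Opalin and Ermn had 16, 2 and 2 UMIs, with none of Olig2 or Nkx6-2; Mog and Olig1 are at 0 there by definition. In P7 oligodendrocytes Ermn and Nkx6-2, which were not used to choose them, stood at 585 and 334 CPM, while Foxd3 had no UMI. Markers of other cell types were also present. The 9 neuron markers came to 1009 CPM in P7 Schwann cells, where all 9 were detected, and to 712 CPM in oligodendrocytes (Elavl3 alone 651), against 77.3 and 150 CPM in E15 glia. The 10 mesenchymal markers came to 3524 CPM in P7 Schwann cells (Otos alone 1279) and 1673 CPM in oligodendrocytes, against 236 and 195 CPM in E15 glia. Epithelial, hair cell and melanocyte markers came to 464, 450 and 461 CPM in P7 Schwann cells and to at most 42.3, 55.9 and 2.68 CPM in E15 glia. Their part in the results was not tested, but the age comparison was also made with the 287 Schwann cells of the P7 glial clusters alone.

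The promoters of 3 of the genes are shown because all 3 genes differ between the glial groups below: Prx and Cldn19 were high in Schwann cells and at or near 0 in oligodendrocytes, and Mag was highest in oligodendrocytes. Each stretch is the 150 bases before the first start annotated in RefSeq or GENCODE, read 5′ to 3′ on the gene's strand (RefSeq sequence, GRCm38.p6). Capitals mark the short sequence bound by the SOX family, to which Sox10 belongs (ACAAAG, or CTTTGT on the opposite strand), or by the EGR family, to which the peripheral myelin regulator Egr2 belongs (GTGGGNG on either strand).
Prx, chr7:27499174-27499323, plus strand: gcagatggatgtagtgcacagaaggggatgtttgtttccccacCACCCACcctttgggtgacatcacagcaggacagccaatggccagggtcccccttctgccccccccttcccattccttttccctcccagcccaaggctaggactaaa
Cldn19, chr4:119255264-119255413, plus strand: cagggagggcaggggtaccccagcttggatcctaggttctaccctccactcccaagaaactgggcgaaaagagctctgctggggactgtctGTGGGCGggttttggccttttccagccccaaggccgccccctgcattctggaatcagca
Mag, chr7:30914923-30915072, minus strand: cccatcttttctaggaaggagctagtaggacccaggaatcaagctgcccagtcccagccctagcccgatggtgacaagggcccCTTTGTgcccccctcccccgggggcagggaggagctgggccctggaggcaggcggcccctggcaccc
The EGR letters begin 107 bases before the start of Prx, in the opposite orientation, and 59 bases before that of Cldn19. The SOX letters begin 67 bases before the start of Mag. In 300-base windows around the RefSeq starts of 6 of the genes, the EGR letters occurred for Prx, Cldn19 and Mag (for Mag after the stretch shown) and the SOX letters for Mag, and neither was found for Pmp22, Mal or Pllp. The marked matches do not overlap. Across all 32851 promoter windows of the same length, 31.6% hold the EGR letters and 18.7% the SOX letters, so a match is common and is given as a description.

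P7 Schwann cells were first compared with E15 glia. All 6 genes that did not choose the cells were higher at P7 (edgeR quasi-likelihood test, adjusted p under 0.05 and a fold of at least 2), by between 23.5-fold for Mbp and at least 403-fold for Pllp. Of the 11935 genes tested, 21.2% were called higher, 14.3% lower and 35.5% in either direction. With the 287 Schwann cells of the glial clusters alone the same 6 genes were called higher, where 15.4% of 11055 genes were higher, 15.5% lower and 30.9% called in either direction, with log2 changes of 4.65 for Mbp, 5.55 for Pmp22, 8.72 for Mag and 6.74 for Mal. At E15, Mbp, Pmp22 and Mal already had counts of 29 or more in each library, whereas Mag had 2 UMIs in each library and Pllp, Fa2h and Cldn19 had none. Mag, Pllp and Fa2h thus passed the filter on low counts through P7 alone and could only be called higher. All log2 changes below are fitted values with their standard error (SE), and the fit takes its estimate of spread from the E15 pair and from all genes together.

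Of the proteins of compact myelin, myelin basic protein (Mbp), which holds the cytoplasmic faces of the membrane together, stood at 125 and 98.7 CPM in E15 replicates 1 and 2 (112 ± 18.4, SD, n = 2) and at 2649 CPM in P7 Schwann cells. The P7 value lay far above both E15 values. The log2 change was 4.59 (SE 0.13, edgeR adjusted p = 1.4e-246). Peripheral myelin protein 22 (Pmp22), a tetraspan protein whose gene dosage underlies hereditary neuropathies, stood at 148 and 168 CPM at E15 (158 ± 14.2, SD, n = 2) and at 5926 CPM in P7 Schwann cells. Here too the E15 pair lay close together and the P7 value far above. Its log2 change was 5.26 (SE 0.13, edgeR adjusted p = 8.6e-313). Pmp22 (ENSMUSG00000018217) lies at chr11:63128982-63159547 on the plus strand of GRCm38 in GENCODE M21.

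Myelin-associated glycoprotein (Mag, chr7:30899176-30914873, minus strand), an adhesion molecule of the inner glial membrane that faces the axon, had 2 UMIs in each E15 library (0.765 and 0.910 CPM) and 847 in P7 Schwann cells (188 CPM). The E15 values were too low for a close estimate of the fold, which was 226 from the pooled counts (interval 87.8 to 830). The fitted log2 change was 7.78 (SE 0.29, edgeR adjusted p = 7e-155). P7 oligodendrocytes had 5186 UMIs of the oligodendrocyte gene Mobp beside 9979 of Mag, and P7 Schwann cells had 16 beside 847. Mobp is among the genes that chose the oligodendrocytes. The part of oligodendrocyte RNA in the Mag of Schwann cells was not tested.

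Mal and plasmolipin belong to the MARVEL family, membrane proteins found in the lipid-rich domains of myelin and of the vesicles that deliver it. Mal (chr2:127633226-127656695, minus strand) stood at 11.1 and 14.6 CPM at E15 (29 and 32 UMIs) and at 977 CPM at P7. Plasmolipin (Pllp, chr8:94674894-94696278, minus strand) had no UMI in either E15 library and 1136 at P7 (252 CPM). A count of 0 allows up to 1.15 and 1.36 CPM in the 2 libraries. Mal rose by 6.29 on the log2 scale (SE 0.17, edgeR adjusted p = 7.1e-287), and Pllp was at least 403-fold higher when the E15 group is set to 3 counts in all (edgeR adjusted p = 1e-191). Fatty acid 2-hydroxylase (Fa2h, chr8:111345135-111393824, minus strand), which makes the hydroxylated fatty acids of myelin galactolipids, likewise had no UMI at E15 and 468 at P7 (104 CPM). It was at least 166-fold higher by the same bound (edgeR adjusted p = 5.9e-101).

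Periaxin and claudin 19 are known from peripheral myelin. Periaxin (Prx, chr7:27499324-27520214, plus strand) links the outer, basal lamina side of the myelinating Schwann cell to the cytoskeleton, and claudin 19 (Cldn19, chr4:119255414-119262438, plus strand) forms tight junctions between the turns of its own membrane. Prx had 3 UMIs in each E15 library (1.15 and 1.36 CPM) and stood at 424 CPM in P7 Schwann cells, and Cldn19 had none at E15 and stood at 483 CPM. Since they chose the P7 cells, both were tested between Sox10-positive cells of the glial clusters without Mog or Olig1 at both ages, 148 and 173 cells at E15 and 408 at P7. There Prx stood at 1.15, 1.38 and 414 CPM in the 3 libraries and rose by 8.38 on the log2 scale (SE 0.25, edgeR adjusted p = 2e-235). Cldn19 stood at 0, 0 and 523 CPM and was at least 833-fold higher (edgeR adjusted p = 6.9e-278). With this definition all 8 genes were called higher at P7, where 15.7% of 11266 genes were higher, 14.5% lower and 30.2% called in either direction. Mag, Prx, Cldn19, Pllp and Fa2h passed the filter on low counts through P7 alone here and could only be called higher. Cldn19, Pllp and Prx overlap the predicted genes Gm12927, Gm45767 and Gm15541 on the opposite strand. Whether counting used strand is not given in the sources used here.

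**Figure D1:**
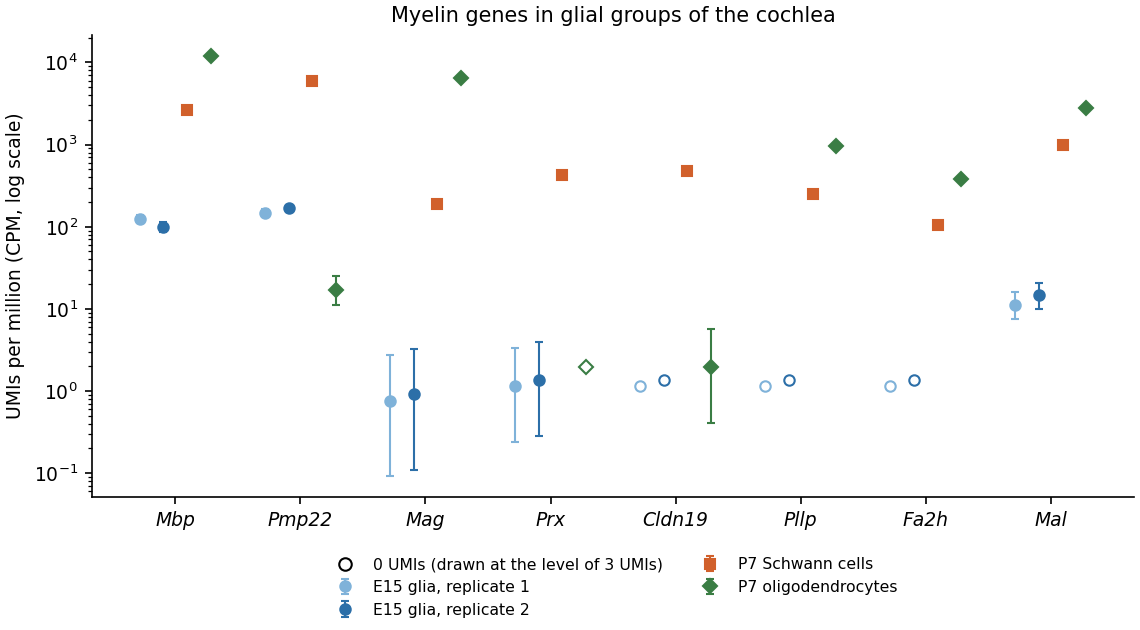
Level of each gene in CPM (log scale) in E15 glia of replicates 1 and 2, P7 Schwann cells and P7 oligodendrocytes, with exact 95% Poisson intervals; open symbols mark sums with 0 UMIs, drawn at the level of 3 UMIs. The E15 points lie below the P7 Schwann cell points for every gene, and the oligodendrocyte points lie above the Schwann cell points for Mbp, Mag, Pllp, Fa2h and Mal and below them for Pmp22, Prx and Cldn19.

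Within E15 the genes with counts were spread over both glial clusters. In the larger, led by Fabp7 and Ednrb, Mbp stood at 147 and 109 CPM and Pmp22 at 163 and 181 CPM in replicates 1 and 2. In the smaller, led by Npy and Fabp7, with 31 and 22 cells, Mbp stood at 73.7 and 51.9 CPM and Pmp22 at 112 and 111 CPM. Both genes were thus lower in the smaller cluster in each library. Cldn19, Pllp and Fa2h had no UMI in either cluster.

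The change was also visible cell by cell. To remove differences in depth, each cell was thinned to 2000 UMIs, which left out 8 and 10 cells at E15, 4 Schwann cells and 2 oligodendrocytes. Mbp was then found in 22.8% and 18.8% of E15 glia (61.4% and 44.6% unthinned) and 76.5% of P7 Schwann cells (91.9% unthinned). Pmp22 was found in 31.0% and 25.0% of E15 glia and 84.7% of Schwann cells, and Mal in 2.07% and 4.55% against 74.1%. Their E15 shares for Mbp exceeded those of E15 mesenchymal cells, 0.470% and 0.202%, and their Pmp22 shares exceeded the 9.19% and 9.34% of those cells. No E15 glial cell, of 145 and 176 thinned cells, had UMIs of 4 or more of the 8 genes, whereas 271 of 413 thinned Schwann cells (65.6%) and 21 of 38 oligodendrocytes (55.3%) did. Cldn19 and Prx are among the 8 and chose the Schwann cells, so part of that share follows from the choice.

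**Figure D2:**
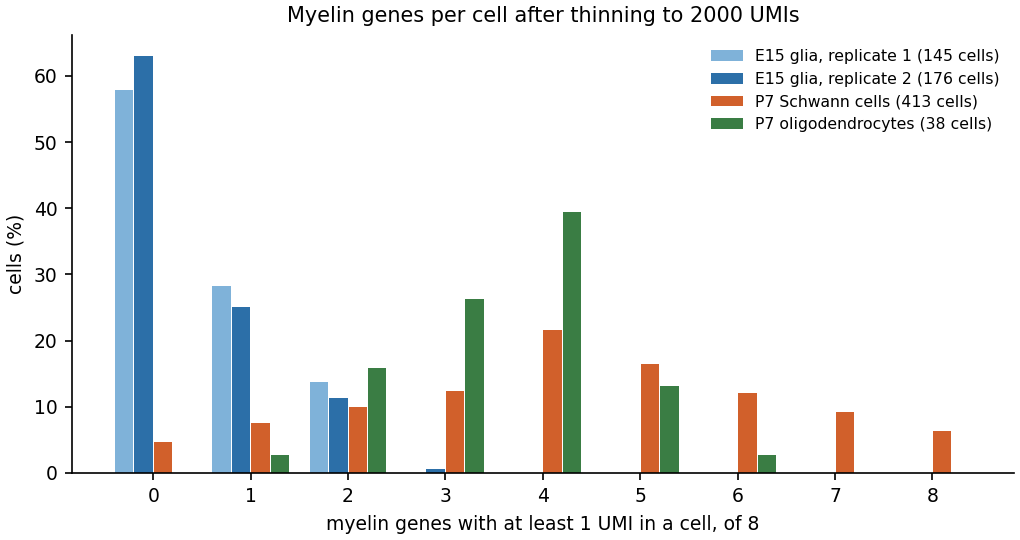
Percentage of cells (y axis) by the number of the 8 myelin genes with at least 1 UMI after each cell was thinned to 2000 UMIs (x axis), for E15 glia of replicates 1 and 2, P7 Schwann cells and P7 oligodendrocytes. No E15 cell has more than 3 of the genes, and 65.6% of the Schwann cells have 4 or more.

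P7 oligodendrocytes were next set beside P7 Schwann cells. Both come from 1 library, so there is no test, and the intervals cover counting error only; a gene was called where it differed at least 4-fold with at least 50 CPM in the higher group. By that rule Mbp and Mag were higher in oligodendrocytes, where 8.95% of 3954 genes were, and Pmp22, Prx and Cldn19 were lower, where 10.8% were (19.7% in either direction). Pllp, Fa2h and Mal were also higher in oligodendrocytes, but by less than 4-fold. These calls near the limit depended on the cells counted. With at least 2 UMIs of Cldn19 and Prx required of Schwann cells the ratio of Mbp was 3.61, and with predicted doublets kept or the oligodendrocyte cluster alone those of Pllp (4.40 and 4.22) and Fa2h (4.33 and 4.16) passed 4.

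Mbp stood at 11902 CPM in oligodendrocytes and 2649 CPM in Schwann cells, a ratio of 4.49 (4.39 to 4.60). Mag stood at 6533 and 188 CPM, a ratio of 34.8 (32.5 to 37.4). Mag had the widest gap of the genes that were higher in oligodendrocytes, and it depended on which Schwann cells were counted: against those of the glial clusters alone the ratio was 18.8. Pllp stood at 966 and 252 CPM (ratio 3.84, 3.55 to 4.15), Fa2h at 377 and 104 CPM (3.64, 3.21 to 4.12) and Mal at 2757 and 977 CPM (2.82, 2.70 to 2.94). Against the Schwann cells of the glial clusters these 3 ratios were 1.99, 2.27 and 2.18.

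The 3 genes lower in oligodendrocytes had at most 26 UMIs there. Pmp22 had 26 UMIs in the 40 oligodendrocytes (17.0 CPM) and stood 348-fold higher in Schwann cells (238 to 533). Of the 8 non-glial cell groups at P7 described further on, neurons not counted, every one had Pmp22 above the 17.0 CPM of oligodendrocytes. Cldn19 had 3 UMIs in oligodendrocytes (1.96 CPM), and its ratio of Schwann cells to oligodendrocytes was 246 (84.0 to 1193). Prx had none, which allows up to 1.96 CPM, and stood at least 216-fold higher in Schwann cells by that floor of 3 counts (at least 175-fold by the exact 95% interval). These 2 genes chose the Schwann cells. Prx in the 368 Schwann cells chosen on Cldn19 stood at 477 CPM, and Cldn19 in the 337 chosen on Prx at 519 CPM, so each is also high in cells that the other gene picked.

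**Figure D3:**
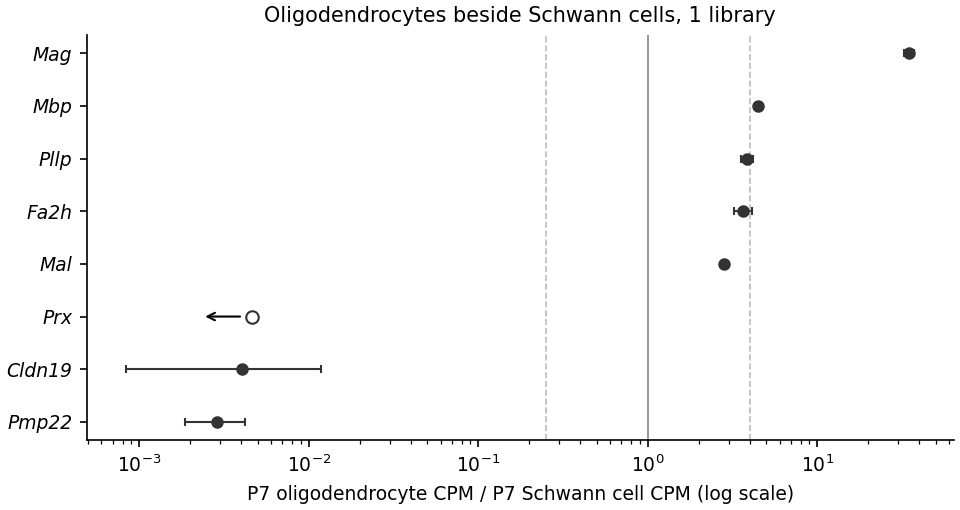
Ratio of the level in P7 oligodendrocytes to that in P7 Schwann cells (log scale) for each gene, with exact 95% counting intervals; the solid line marks a ratio of 1 and the dashed lines a 4-fold difference. The open symbol for Prx is the largest ratio that its count of 0 allows at a floor of 3 UMIs, and 5 genes lie right of 1 and 3 left of it.

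The 417 Schwann cells were not alike. Of these, 287 lay in glial clusters, 90 in a cluster led by Nefl, Mt3 and Nefm and named from its neuron markers, and 40 in other clusters, 19 of them epithelial. The 140 in glial cluster 14, led by Ncmap and Pou3f1 among others, had the highest level of all 8 genes among these clusters: Mbp 4183, Pmp22 11225, Mag 587, Prx 821, Cldn19 935, Pllp 737, Fa2h 263 and Mal 1842 CPM. The 147 in glial cluster 2, led by Ednrb and Foxd3, which immature glia also express, had between 171 and 716 CPM of Mbp, Prx, Cldn19, Pllp and Mal, 1553 CPM of Pmp22, and 54.4 and 47.6 CPM of Mag and Fa2h. Cluster 2 also kept Fabp7 at 1451 CPM against 79.7 CPM in cluster 14, while Pou3f1, a transcription factor of the promyelinating stage, was high in both (2414 and 3011 CPM). Mag, Fa2h and Pmp22 differed more between these clusters than Cldn19 and Mal did, and Cldn19 was used to choose the cells. All are cells of 1 library, so these values carry no test.

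The 90 Schwann cells in the cluster led by neuron genes had another combination. Mbp stood at 4068 CPM, Pmp22 at 7485, Prx at 460, Cldn19 at 428 and Mal at 940 CPM, each above its level in cluster 2 and below that in cluster 14, with overlapping intervals for Mbp in the last pair (3964 to 4173 and 4070 to 4297 CPM). Pllp, in contrast, had 10 UMIs in all (6.93 CPM, 3.32 to 12.8) against 737 CPM in cluster 14, and Mag stood at 31.2 CPM (22.8 to 41.7) against 587 CPM. Fa2h was in between at 57.5 CPM. Among genes that are not of the 8, Ugt8a, the enzyme of galactocerebroside synthesis, stood at 308 CPM and Egr2 at 189 CPM, against 372 and 215 CPM in cluster 14. Pou3f1 stood at 9.01 CPM and Ncmap, a noncompact myelin protein, at 10.4 CPM, against 3011 and 1154 CPM. Thinned to 2000 UMIs, Pllp was found in 1.11% of these cells and in 72.1% of those in cluster 14, and Mbp in 98.9% and 93.6%.

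Neuron RNA in these 90 cells was concentrated in a few of them. The 9 neuron markers gave a median of 3.5 UMIs per cell, from 0 to 1101, with 24 cells at 0. The 64 cells with at most 10 such UMIs, a limit chosen after the values were seen, had Mbp at 5177, Pmp22 at 9716, Prx at 575, Cldn19 at 560 and Mal at 1264 CPM, all higher than in the 26 cells with more. Pllp stood at 7.65 CPM and Mag at 35.7 CPM in the 64 cells, and at 6.07 and 25.8 CPM in the 26. The part of neuron RNA in the low Pllp and Mag was not tested. In the same cluster, the 33 cells outside the Schwann definition still had Pmp22 at 2793 and Mbp at 1428 CPM. The part of doublets and of free glial RNA in those cells was not tested.

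**Figure D4:**
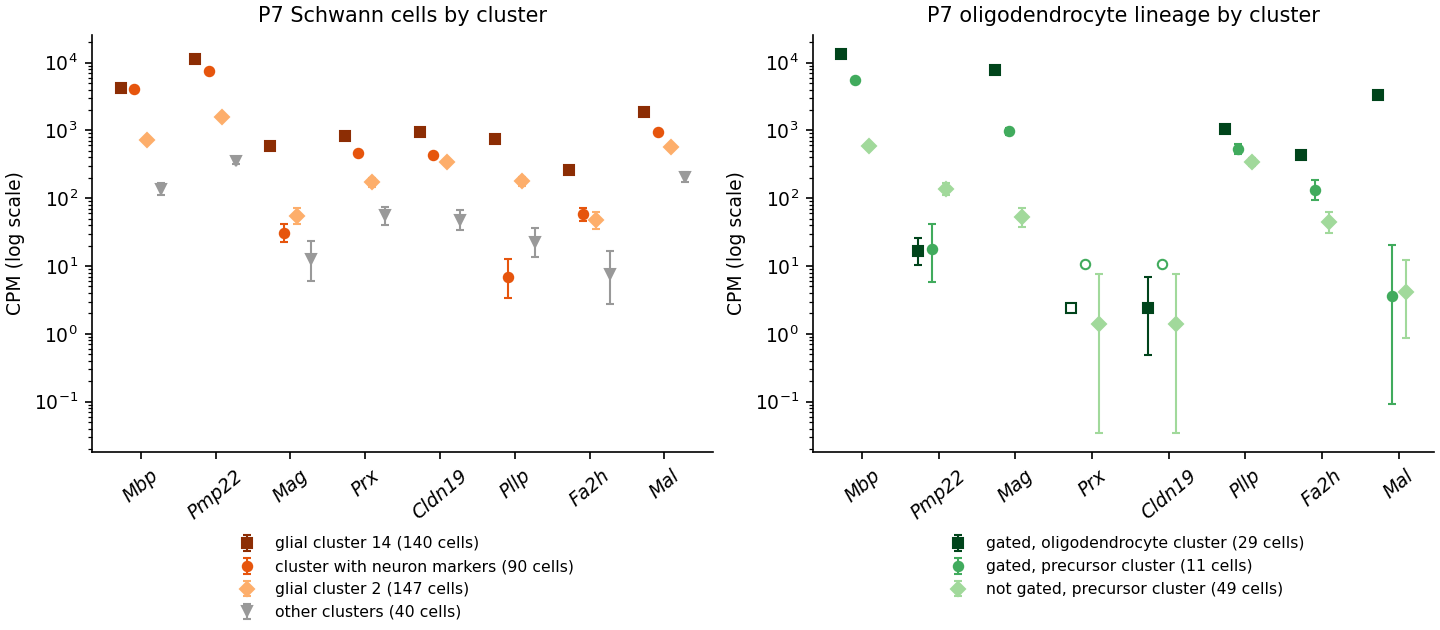
Level of each gene as CPM (log scale) with exact 95% Poisson intervals, at left in P7 Schwann cells by the cluster they lay in and at right in P7 cells of the oligodendrocyte lineage; open symbols are sums with 0 UMIs, drawn at the level of 3 UMIs. At left, Pllp and Mag are at 6.93 and 31.2 CPM in the 90 cells of the cluster led by neuron genes while Mbp and Pmp22 are at 4068 and 7485 CPM; at right, Mal is at 3366 CPM in the oligodendrocyte cluster and at 3.61 and 4.16 CPM in the precursor cluster.

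Values at the edge of the Schwann definition were as follows. The 88 Schwann cells with exactly 1 UMI of Cldn19 and Prx together had Mbp at 278 and Pmp22 at 519 CPM, and the 121 Sox10-positive glia just outside, with no UMI of either, had 378 and 726 CPM. Cells on either side of the threshold thus had levels of the same order, well below the 3519 and 7908 CPM of the 288 Schwann cells with both genes.

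Oligodendrocytes also fell into separate clusters. Of the 40 cells, 29 lay in the oligodendrocyte cluster and 11 in the cluster of oligodendrocyte precursors, led by Tnr and Gpr17; the 49 cells of that cluster outside the definition are given beside them. Mbp stood at 13296, 5605 and 589 CPM in these 3 groups, and Mag at 7766, 964 and 52.6 CPM. Fa2h stood at 431, 134 and 44.3 CPM, so all 3 genes fell in the same order. The 11 and 49 cells share a cluster and were split by the definition itself, mainly by UMIs of Mog, Mobp and Opalin. The part of that choice in the step between them was not tested. Pllp changed least, at 1061, 538 and 342 CPM, and was found in 81.6% of the 49 precursor cells unthinned.

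Mal was the most restricted of these genes. It stood at 3366 CPM (4210 UMIs) in the oligodendrocyte cluster, and had 1 UMI in the 11 cells of the precursor cluster (3.61 CPM, 0.0914 to 20.1) and 3 UMIs in the 49 cells outside the definition (4.16 CPM). The 11 cells with 1 UMI of Mal had 1552 UMIs of Mbp and 267 of Mag. Pmp22 went the other way, at 136 CPM in the 49 precursor cells against 16.8 and 18.1 CPM in the gated cells of the oligodendrocyte and precursor clusters. Just inside the definition, 5 cells with 5 to 10 UMIs of Mog, Mobp and Opalin had Mbp at 5323 and Mal at 234 CPM, and just outside it, 14 cells with 1 to 4 had 896 and 5.64 CPM.

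Outside the glia most of the genes were low at P7, with exceptions for Mal, Pmp22 and Mbp. The 33 remaining cells of the neuron cluster, with Pmp22 at 2793 and Mbp at 1428 CPM as described above, are not counted here. Of the other non-glial types, 8 groups with at least 20 cells were compared. The highest level reached in them was at most 5.73% of that in the higher of Schwann cells and oligodendrocytes for each gene. Against Schwann cells alone it was 16.2% for Mal, 10.0% for Mag, 8.38% for Mbp and 8.01% for Pllp, and at most 4.68% for the others. Mal stood at 158 CPM in epithelial and 119 CPM in endothelial cells, and between 1.19 and 11.4 CPM in the other 6 groups. Mal is known as an apical sorting protein of epithelia. Pmp22 stood at 277 CPM in pericytes, 258 in melanocyte-like or intermediate cells, 196 in macrophages, 153 in mesenchymal and 113 in osteoblast-like cells, and at 32.4 CPM or less in epithelial, endothelial and hair cells. At E15 Pmp22 was likewise higher in pericytes than in mesenchymal cells, at 81.4 and 94.6 CPM against 49.2 and 48.6 CPM in replicates 1 and 2. The E15 libraries differed from each other by less than these groups did.

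Mbp had a level of 222 CPM in the 36 melanocyte-like or intermediate cells at P7 and between 15.5 and 55.3 CPM in the other groups. At E15, Mbp stood at 21.4 and 23.0 CPM in epithelial cells and at 20.3 and 36.3 CPM in macrophages, below the 125 and 98.7 CPM of glia. Pllp reached 20.2 CPM in endothelial cells. Mag reached 18.8 CPM in macrophages and lay between 2.38 and 9.85 CPM in the others. Cldn19, Prx and Fa2h did not exceed 1.52, 3.79 and 4.43 CPM in any of the 8 groups.

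Free RNA from lysed glia can enter any droplet, and its part in these counts outside the glia was not tested. Cldn19, Prx and Fa2h had no UMI at all in P7 hair cells and in melanocyte-like or intermediate cells, the groups with the fewest cells.

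**Figure D5:**
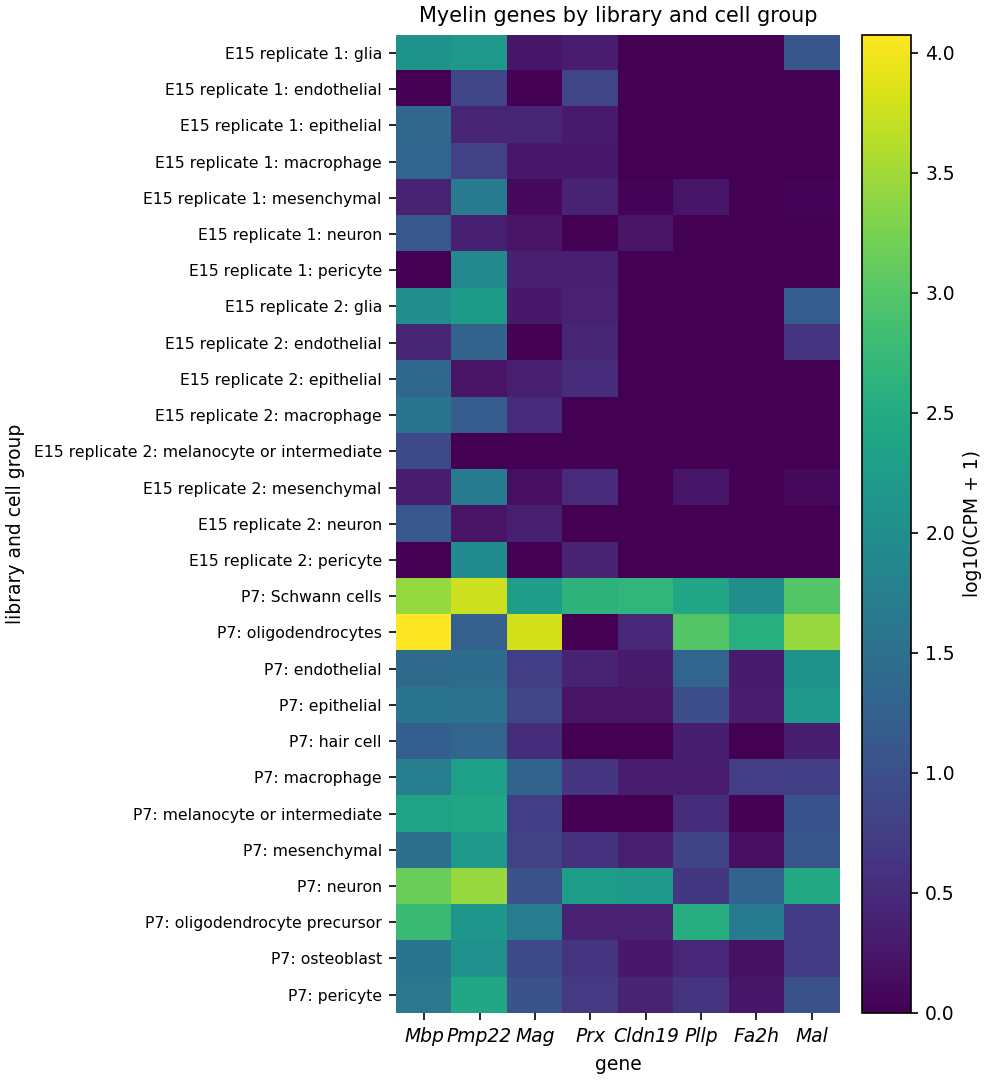
Level of the 8 genes (columns) as log10(CPM + 1) in each library and cell group with at least 20 cells (rows). Cells of the Schwann and oligodendrocyte definitions are left out of the other P7 rows, so the P7 neuron row holds the 33 remaining cells of that cluster, with Pmp22 at 2793 and Mbp at 1428 CPM. In the other non-glial rows the highest values are those of Pmp22 in P7 pericytes and melanocyte-like or intermediate cells (277 and 258 CPM), Mbp in the latter (222 CPM) and Mal in P7 epithelial and endothelial cells (158 and 119 CPM).

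Across 28 sums of a library and cell group, some of the 8 genes followed each other closely. Pearson's r of log2(CPM + 10) was 0.99 between Prx and Cldn19, 0.96 between Mag and Fa2h, 0.95 between Pllp and Fa2h and 0.30 between Mag and Pmp22. Among all other genes with at least 50 CPM in 1 sum, the closest to Prx and to Cldn19 was Mlip (r 0.98 and 0.99), the closest to Mag and to Fa2h was Ugt8a (0.91 and 0.95), and the closest to Mbp was Cnp (0.96), which encodes a myelin enzyme of noncompact loops. Pllp was closest to Plxnb3 (0.93) and Mal to Secisbp2l (0.88), and Gas2l3 was among the 3 closest to Pmp22 (0.83). These values describe sums that share libraries and are set by few glial groups. The P7 Schwann cells are among these sums and were chosen on Prx and Cldn19. Part of the r between Prx and Cldn19, and of their shared closest gene, may thus follow from that choice, which was not tested. Between the 364 Schwann cells that could be thinned to 5000 UMIs, r of log2(UMIs + 1) was highest for Mbp with Pmp22, at 0.88, and lowest for Mbp with Pllp, at 0.29. Between 34 oligodendrocytes it was 0.62 for Mbp with Mag and 0.20 for Mbp with Mal.

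Lists of related genes were read in the same comparison, where 21.2% of all genes tested were higher at P7 and 14.3% lower. Listed genes with few or no UMIs at E15 passed the filter on low counts through P7 and could only be called higher, so the counts describe the tested genes and not the whole lists. Of 16 other peripheral myelin and myelinating Schwann cell genes, 12 were higher at P7 and none lower, with a median log2 change of 3.43 against 0.04 for all genes tested. Pou3f1, Kcna1, a potassium channel subunit, and Drp2, which binds periaxin, rose by 7.68, 8.25 and 7.16. Of 14 testable central myelin genes 10 were higher and 1 lower. Cryab, a small heat shock protein, rose by 8.11, Ndrg1, whose loss causes a demyelinating neuropathy, by 6.42, and the tetraspanin Cd9 by 4.55. Of 14 genes of galactolipid synthesis, the pathway that Fa2h serves, 9 were higher and none lower (median 1.40). Ugt8a rose from 1.91 and 0.910 CPM to 212 CPM, and the fatty acid elongase Elovl7, with no UMI at E15, was at least 95.5-fold higher at P7.

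Of 18 MARVEL and tetraspan relatives of Mal, Pllp and Pmp22, 16 could be tested, and 11 were called higher and none lower. Mall, Marveld3 and Emp1 are among the 11 and had at most 1 UMI in an E15 library. Among those with at least 50 CPM, Gpm6a (3.70) and Emp2 (3.47), a close relative of Pmp22, had the largest log2 changes. In the Schwann cells of the glial clusters alone, 8 of 15 were higher and 1, Myadm, lower, and Gpm6a was not called there (log2 change 1.17). Over all genes, 15.4% were higher and 15.5% lower in these cells, and 21.2% and 14.3% in all Schwann cells. Of 15 claudins other than Cldn19, 10 could be tested, each with at most 10 UMIs in an E15 library, and all 10 were called higher. In the glial clusters alone 4 could be tested, and Cldn1 and Cldn11 were called. The claudin with at least 50 CPM, Cldn9, had a log2 change of 4.86 in all Schwann cells and 0.36 in the glial clusters, and the 9 epithelial markers stood at 464 CPM in the Schwann cells. Cldn11, the tight junction claudin of oligodendrocytes, stood at 17.7 CPM in Schwann cells and 4524 CPM in oligodendrocytes.

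Among genes of immature glia the counts depended on the cells compared. Of 15 tested in all Schwann cells, 8 were lower at P7 and 1, Id2, was higher. Of 16 tested, 6 were lower and 2 higher in the Schwann cells of the glial clusters, and 5 were lower and 4 higher in Sox10-positive glia. Over all genes, 14.3% were lower and 21.2% higher in all Schwann cells. These shares were 15.5% and 15.4% in the glial clusters, and 14.5% and 15.7% in Sox10-positive glia. Gap43, a growth protein of immature glia and axons, fell from 604 and 584 CPM to 25.2 CPM (log2 change -4.53, SE 0.18). The neurotrophin receptor Ngfr fell by 3.64, Fabp7 by 3.45 and N-cadherin (Cdh2) by 2.97. Ngfr, Fabp7, Cdh19, Erbb3 and Foxd3 are among the markers used to name glial clusters, which chose the E15 cells but not all P7 Schwann cells. The part of that choice in these counts and falls was not tested. Ednrb was lower in all Schwann cells (-1.14) and was not called in those of the glial clusters (-0.34). Of 16 genes of axon-glia contact, 9 were higher and 1, Nrcam, lower. In the glial clusters alone 9 of 15 were higher and 3 (Nrcam, Pard3 and Adam22) lower, and in Sox10-positive glia 9 of 15 were higher and 2 lower. Gldn, the gliomedin that gathers channels at peripheral nodes, rose from 0.765 and 0.455 CPM to 153 CPM (7.88), and the adhesion molecule Cadm4 of the internode by 1.48.

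Between the P7 cell types, 10 of 13 peripheral myelin genes with at least 50 CPM were at least 4-fold lower in oligodendrocytes, where 10.8% of genes were, and 18 of 25 central myelin genes were at least 4-fold higher, where 8.95% of genes were. Mog, Mobp, Opalin, Olig1 and Olig2 are in the second list and chose the oligodendrocytes. Dhh, Gldn and Slc36a2 had no UMI in oligodendrocytes. Of 10 galactolipid genes, 4 were higher in oligodendrocytes and none lower: Elovl7 (17.1-fold), Gltp (11.7), Ugt8a (10.3) and Cers2 (4.72). Fa2h itself, at 3.64-fold, lay just under that limit. Cmtm5, a MARVEL relative, was 2.96-fold higher in oligodendrocytes, whereas Emp3, a relative of Pmp22, was 6.44-fold higher in Schwann cells. Emp2 had 2 UMIs in oligodendrocytes, and its ratio of Schwann cells to oligodendrocytes was 104 (28.7 to 862).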

How the data were processed

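Single-cell RNA was counted in 2 E15 libraries and 1 P7 library. Reads were processed with Cell Ranger 6.1.2 on GRCm38 (mm10), per the submitters' processing notes, while the P7 file carries version 3.1.0, per the file headers; software version and age cannot be told apart. The deposited values are raw UMI counts per gene and barcode, 46530036, 44304364 and 93829443 in all in 3234, 3897 and 8141 barcodes (E15 replicates 1 and 2, P7). Barcodes with fewer than 500 genes or more than 20% mitochondrial UMIs were dropped. Scrublet's automatic threshold marked 5, 6 and 3 cells, so the 64, 100 and 422 cells with the highest scores were removed instead. Libraries shared few barcodes, and cells were clustered by age without the 8 genes (scanpy 1.11.5, 2000 variable genes, 30 components, 15 neighbours, Leiden resolution 1). Clusters were named where at least 3 markers of a type had a fold of 2 and were found in 20% of cells, and a name means cells like that type. UMIs summed per library and group were tested with edgeR 4.0.16 (quasi-likelihood, TMM, filterByExpr, Benjamini-Hochberg over all genes). The fit has 1 residual degree of freedom, with the spread pooled over genes and the single P7 library taken to vary as the E15 libraries do. In data simulated for it (10641 genes), 56% of 50 genes changed 2-fold and 100% of 50 changed 4-fold were recovered, with 1 false call. Variation between P7 libraries cannot be estimated from 1 library, so the simulation does not measure the false calls it would cause in these data. Recovery was not given separately for genes with few or no UMIs at E15, such as Mag, Pllp and Fa2h. Named genes are the 8, up to 6 called genes of at least 50 CPM per list with the largest change, Sox10, Egr2 and Cnp, and the nearest patterns; cell type markers, Gm genes, low-count or single list members and the genes describing single clusters were named outside this rule. The 8 genes, lists and tests were chosen with earlier results of these data known. Some items of the rule are not reported here. Alternatives were DESeq2 1.42.0, no count filter, glmTreat, other filters and cell definitions, and leaving out each E15 library.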

Additional observations from a re-analysis of the deposited data

How the results depend on the processing

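The 6 genes were called higher in P7 Schwann cells under each of 9 alternatives with a test that changed the values (Leiden resolution 2 left the counts of these groups as they were), and were at least 2-fold higher without either E15 replicate (6 to 6 genes, values with no test), where 1 library is set against 1. In the Sox10-positive glia Cldn19 and Prx were likewise at least 2-fold higher without either E15 replicate (2 to 2 genes, no test). Log2 changes ranged from 4.32 to 4.94 for Mbp, 5.07 to 5.62 for Pmp22, 7.37 to 8.72 for Mag and 6.05 to 6.74 for Mal. Over all genes DESeq2 called 2383 against 4233 (1307 higher and 1076 lower against 2530 and 1703), and glmTreat called 2864. The median log2 change of all genes was 0.17 in DESeq2 and 0.16 in edgeR without the filter, against 0.04. At least 2-fold different, with no test, were 4530 to 4598 genes without an E15 replicate. Of the 8 genes, 2 were at least 4-fold higher in oligodendrocytes, where 8.95% of 3954 genes were. The number was 4 with predicted doublets kept or with the oligodendrocyte cluster alone (Pllp and Fa2h added). It was 1 with at least 2 UMIs of Cldn19 and Prx (Mbp at 3.61-fold lost). The 3 lower genes stayed below in each. The share over all genes was not taken for these alternatives. No result changed direction. No paired analysis was possible because P7 has 1 library. Depth limits Mag and Prx at E15, with 2 and 3 UMIs a library, and the 11 oligodendrocytes of the precursor cluster.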
